A study of Mus musculus with 11 samples.

Results

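The genes analyzed here were 8 genes of sebaceous gland lipid metabolism, Scd1, Scd3, Elovl3, Far2, Awat1, Awat2, Soat1 and Mc5r, taken by symbol from a table of 45777 genes. RNA sequencing was performed on skin and small intestine of BALB/c mice aged 8 to 10 weeks for which the annotation names no engineered allele. The study used males and females, and the sex behind each library was not examined here. A daily 62.5 mg of cream was applied to the shaved back of the mice, and the annotation adds the right ear and gives 5 to 8 days. Control mice received a vehicle cream (Vaseline), and IMQ mice received Aldara cream with 5% imiquimod (IMQ), a TLR7 ligand that induces psoriasis-like dermatitis. These are different products, so effects of the drug and of the cream base cannot be told apart. Skin was sequenced in control libraries 1 to 3 and IMQ libraries 4 to 6, and small intestine in control libraries 7 to 9 and IMQ libraries 10 and 11, each with 44995414 to 58526384 counts. The annotation does not name separate animals for the libraries or say which tissues came from one mouse, so p-values measure the spread between these samples.

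Sebaceous glands open into the hair follicle, and their cells, the sebocytes, fill with lipid and burst to release sebum. Mouse sebum is rich in wax esters, wax diesters, triglycerides and cholesteryl esters. Fatty acids are elongated and desaturated, part of them is reduced to fatty alcohols, and acyltransferases join alcohols or cholesterol to fatty acids. Mc5r differs from the others in that it is a receptor for melanocortin peptides, and mice without it produce less sebum.

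All 8 genes were expressed in each of the 6 skin libraries, and all 8 had lower mean normalized counts in IMQ skin than in control skin. Relative log expression was used for normalization, and a gene was called at a Benjamini-Hochberg adjusted p under 0.05 over all genes tested with the quasi-likelihood test of edgeR. The fall passed this test for 3 of 8 genes, Awat2, Mc5r and Far2, whereas 2.69% of the 20512 genes tested were called lower. In 6 of 8 genes every IMQ library was below every control library, against 13.3% of all genes tested. The median log2 fold change of the 8 genes was -1.41, and that of all genes tested was -0.01. In whole skin, fewer sebocytes, less RNA per sebocyte, more of other cells and changes in other cells expressing these genes cannot be told apart.

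**Figure D1:**
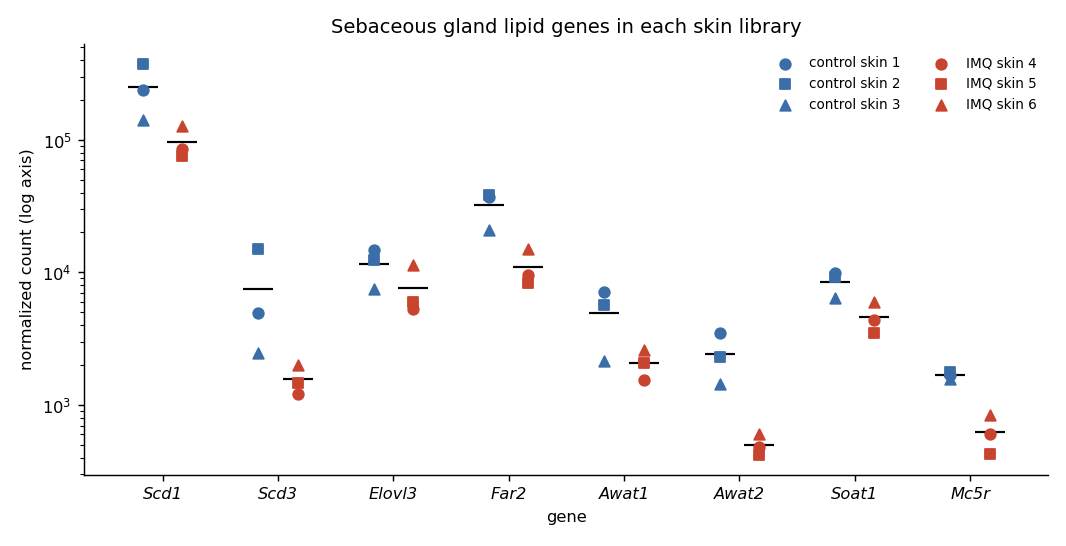
Normalized counts (log axis) of the 8 genes in each skin library, with control libraries in blue, IMQ libraries in red, one marker shape per library and a line at each group mean. The groups overlap for Elovl3 and Awat1 and are separate for the other 6 genes, and IMQ library 6 is the highest IMQ library for every gene.

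Promoter sequences from RefSeq (GRCm38.p6, 250 bases before to 50 bases after a transcription start) were found for 5 of the 8 genes. Those of Far2 and Awat2, which were called lower, and of Awat1, the paralog of Awat2, are shown to allow comparison of the sequence around starts of genes of consecutive steps of wax synthesis. The stretches are chr6:148047166-148047465 on the plus strand for Far2, chrX:100442668-100442967 on the minus strand for Awat2 and chrX:100571997-100572296 on the plus strand for Awat1. Capitals mark GC boxes (GGGCGG or, on the other strand, CCGCCC) and CCAAT boxes (CCAAT or ATTGG).
Far2 promoter: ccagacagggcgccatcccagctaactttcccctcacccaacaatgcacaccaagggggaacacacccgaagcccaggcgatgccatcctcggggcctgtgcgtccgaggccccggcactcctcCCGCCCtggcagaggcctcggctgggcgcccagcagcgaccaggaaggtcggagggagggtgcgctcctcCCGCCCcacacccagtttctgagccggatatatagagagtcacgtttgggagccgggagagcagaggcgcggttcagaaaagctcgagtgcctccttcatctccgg
Awat2 promoter: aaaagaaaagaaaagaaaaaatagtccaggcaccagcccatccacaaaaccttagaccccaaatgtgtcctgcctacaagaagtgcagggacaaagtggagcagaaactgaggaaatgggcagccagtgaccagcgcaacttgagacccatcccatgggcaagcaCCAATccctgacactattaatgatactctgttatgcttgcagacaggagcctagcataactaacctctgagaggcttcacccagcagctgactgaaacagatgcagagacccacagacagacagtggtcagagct
Awat1 promoter: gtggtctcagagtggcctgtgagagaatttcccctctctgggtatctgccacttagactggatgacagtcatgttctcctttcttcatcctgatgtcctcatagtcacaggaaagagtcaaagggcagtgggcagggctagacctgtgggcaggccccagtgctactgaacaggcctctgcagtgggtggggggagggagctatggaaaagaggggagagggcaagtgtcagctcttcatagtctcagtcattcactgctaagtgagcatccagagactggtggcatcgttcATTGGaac
In this window Far2 had 2 GC boxes, which begin 126 and 56 bases upstream of the start. Awat2 had 1 CCAAT box that begins 85 bases upstream in the window shown. The promoter table gives Awat2 another start, with the window chrX:100412538-100412837, which held a CCAAT box 121 bases and a GC box 70 bases upstream, and both windows lie inside the RefSeq range of the gene. Awat1 had 1 CCAAT box downstream of its start. Across 32851 promoters of the same length, 35.7% held a GC box and 37.4% held a CCAAT box on either strand. The core of the sterol regulatory element (TCACNCCAC) was in 1.24% of all promoters, and the nuclear receptor motif AGGTCA, the TATA box TATAAA and the E-box CACGTG were in 16.3%, 13.6% and 7.15%, with either strand counted. These 4 motifs were not found in the windows of the 5 genes, which include Scd3 and Soat1. None of the 6 motifs searched was in all 3 windows shown.

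Scd1 and Scd3 encode stearoyl-CoA desaturases, which introduce a double bond into saturated fatty acids. Both genes are on chromosome 19, Scd3 (Entrez Gene 30049, chr19:44203288-44244016, plus strand) and Scd1 (Entrez Gene 20249, chr19:44394450-44407709, minus strand), with 150434 bases between them that include the paralogs Scd2 and Scd4. The sources used here do not state how reads matching several of these related genes were counted, so the split among them is uncertain. Normalized counts of Scd1 were 237310, 375615 and 141593 in control skin, and 85841, 75125 and 126957 in IMQ skin. The lowest control library was above the highest IMQ library. The mean was 2.62-fold lower in IMQ skin (log2 fold change -1.39, SE 0.41), which missed the threshold in edgeR (adjusted p = 0.0963). Scd1 took 0.309% to 0.754% of all counts of a control skin library and 0.153% to 0.266% of an IMQ skin library.

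Normalized counts of Scd3 were 4983, 14921 and 2451 in control skin, and 1210, 1464 and 2005 in IMQ skin. The groups did not overlap, but control library 2 was far above the other control libraries, with a coefficient of variation of 88.5% in the control group. The mean was 4.78-fold lower in IMQ skin (log2 fold change -2.26, SE 0.63), and the adjusted p from edgeR was 0.0852. Without control library 2 the log2 fold change of Scd3 was -1.25 (adjusted p = 0.0702, edgeR), against -2.10 to -2.68 with one other library left out. Of the paralogs between them, Scd2 had a log2 fold change of 0.03 (adjusted p = 0.966, edgeR) and Scd4 one of -0.77 (adjusted p = 0.113, edgeR). FPKM of Scd2 were 93.9, 53.6 and 107 in control skin and 92.0, 86.1 and 69.3 in IMQ skin, and these groups overlapped.

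Elovl3 encodes an elongase of very long chain fatty acids that is needed for normal sebum and hair lipids. It is on chromosome 19 (Entrez Gene 12686, chr19:46131897-46135694, plus strand). Normalized counts were 14633, 12444 and 7543 in control skin, and 5297, 6003 and 11418 in IMQ skin. IMQ library 6 was above control library 3, so the groups overlapped, and Elovl3 had the smallest difference of the 8 genes (log2 fold change -0.61, SE 0.36, adjusted p = 0.364, edgeR). Elovl3 overlaps Pitx3 on the opposite strand, which had only 27 to 56 counts in the skin libraries.

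Far2 encodes a fatty acyl-CoA reductase that makes fatty alcohols, the alcohol part of wax esters. It is on chromosome 6 (Entrez Gene 330450, chr6:148047416-148182758, plus strand). Normalized counts of Far2 were 37346, 38485 and 20874 in control skin, and 9615, 8388 and 15118 in IMQ skin. All IMQ libraries were below all control libraries, although IMQ library 6 reached near the level of control library 3. Far2 fell 2.92-fold (log2 fold change -1.55, SE 0.32, adjusted p = 0.0370, edgeR). Ergic2 overlaps Far2 on the opposite strand, and whether counting used the strand of the reads is not given in the sources used here. Ergic2 had 2469 to 3304 counts in control skin and 2656 to 2932 in IMQ skin, and these ranges overlapped.

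Awat1 and Awat2 encode acyl-CoA wax alcohol acyltransferases, which join fatty alcohols to fatty acids. Both are on chromosome X, Awat2 (Entrez Gene 245532, chrX:100402221-100494278, minus strand) and Awat1 (Entrez Gene 245533, chrX:100572247-100578206, plus strand), with 77969 bases between them that include the acyltransferase gene Dgat2l6. Normalized counts of Awat2 were 3505, 2321 and 1441 in control skin, and 480, 418.5 and 603 in IMQ skin. All IMQ libraries were well below the control libraries, and Awat2 fell 4.84-fold (log2 fold change -2.27, SE 0.33, adjusted p = 0.0133, edgeR). This was the largest fold change and the smallest adjusted p of the 8 genes.

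Normalized counts of Awat1 were 7108, 5678 and 2148 in control skin, and 1539, 2084 and 2598 in IMQ skin. Control library 3 was below IMQ library 6, so the groups overlapped, and the difference missed the threshold (log2 fold change -1.26, SE 0.43, adjusted p = 0.136, edgeR). Both genes of the pair were then compared as the ratio of their FPKM (fragments per kilobase of transcript, scaled to library size), in which the scaling between libraries cancels. The ratio of Awat1 to Awat2 was 2.38, 2.93 and 1.79 in control skin, and 3.88, 5.99 and 5.10 in IMQ skin. The ratio was higher in all IMQ libraries than in all control libraries, with means of 2.36 ± 0.57 and 4.99 ± 1.06 (SD, n = 3 each). The 2-sided exact permutation test gave p = 0.1, the smallest that 3 libraries against 3 allow, and 0.2 after Benjamini-Hochberg adjustment over the 4 ratios tested. In FPKM, Awat1 exceeded Awat2 in all 6 skin libraries.

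Soat1 encodes sterol O-acyltransferase 1, which esterifies cholesterol for storage and is active in many cell types, macrophages among them. It is on chromosome 1 (Entrez Gene 20652, chr1:156428108-156474328, minus strand). Normalized counts of Soat1 were 9833, 9234 and 6389 in control skin, and 4341, 3478 and 5965 in IMQ skin. The groups did not overlap, and the difference of 1.85-fold missed the threshold (log2 fold change -0.89, SE 0.24, adjusted p = 0.0829, edgeR). The FPKM of Far2 divided by that of Soat1 was 5.19, 5.70 and 4.46 in control skin, and 3.03, 3.30 and 3.46 in IMQ skin. This ratio was lower in every IMQ library, with the same exact permutation p of 0.1 and adjusted 0.2. The other 2 ratios, Scd3 to Scd1 and Elovl3 to Scd1, overlapped between the groups, each with an exact permutation p of 0.2.

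Mc5r, the melanocortin 5 receptor, is on chromosome 18 (Entrez Gene 17203, chr18:68336744-68342446, plus strand). Normalized counts were 1698, 1784 and 1581 in control skin, and 609, 427 and 836 in IMQ skin. The control libraries lay close together, with a coefficient of variation of 6.03%, and the highest IMQ library was far below them. Mc5r fell 2.71-fold (log2 fold change -1.44, SE 0.24, adjusted p = 0.0209, edgeR). Of 8 other genes of the melanocortin system in the table, 4 could be tested in skin and 1 was called, Mc1r, the receptor of melanocytes (log2 fold change -5.42, adjusted p = 0.0487, edgeR). Counts of Mc1r were 287, 32 and 1136 in control skin and 13, 7 and 8 in IMQ skin, so control library 2 was close to the IMQ libraries for Mc1r but not for Mc5r.

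The 8 genes shared part of the order of the libraries. IMQ library 6 was the highest IMQ library for all 8, and control library 3 was the lowest control library for all 8. The summed FPKM of macrophage and of adipocyte genes, given below, shared both of these positions. Control libraries 1 and 2 were each the highest for 4 of the 8 genes. The lowest was IMQ library 5 for 5 genes and IMQ library 4 for 3. The calls in skin depended on the test and on single libraries. DESeq2 called 7 of 8 genes lower, all but Elovl3, and one edgeR fit of all 11 libraries called 5. Of all 20512 genes tested, DESeq2 called 1516 lower and that edgeR fit 963, against 552 in the main fit. Without control library 3 edgeR called 5 genes, without control library 1 it called 1, and without IMQ library 4 or 5 it called 0, with 6 and 5 genes at an unadjusted p under 0.05. Among all genes, 452 of 20706 were called lower without control library 3 and 81 of 20720 without control library 1. Calls lower were 102 of 20797 and 39 of 20743 without IMQ library 4 or 5, where 3779 and 3263 had an unadjusted p under 0.05. By contrast, all 8 log2 fold changes stayed below 0 in each of these fits. With 1 library left out, Awat2 lost its call without IMQ library 4 or 5 (adjusted p = 0.0606 and 0.0722, edgeR), and Mc5r lost it without control library 1 or IMQ library 4 or 5 (adjusted p = 0.0519 to 0.0787, edgeR). Far2 lost it without control library 1 or 2 or IMQ library 4 or 5 (adjusted p = 0.0537 to 0.151, edgeR).

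The label of the genes was checked against markers of cells in skin. Of 12 genes of sebocyte identity, 12 were detected in the skin libraries and tested, 3 were called lower and 0 higher, and the median log2 fold change was -0.75. In the skin, 4.05% of all genes tested were called higher. The 3 called were Fa2h, which makes 2-hydroxy fatty acids (log2 fold change -1.68, adjusted p = 0.0389, edgeR), the lipid droplet gene Cidea (-1.18, adjusted p = 0.0492, edgeR) and the stem cell gene Lrig1 (-0.83, adjusted p = 0.0154, edgeR). FPKM of Fa2h were 251, 229 and 184 in control skin and 50.1, 43.9 and 109 in IMQ skin, with IMQ library 6 again the highest of its group. Krt79, a keratin of the gland duct and the upper follicle, had FPKM of 707, 628 and 389 in control skin and 262, 477 and 430 in IMQ skin. The groups overlapped for Krt79, and its log2 fold change of -0.52 missed the threshold (adjusted p = 0.367, edgeR).

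Genes that feed or extend the pathway were described from lists. Of 13 other desaturases and elongases tested, 1 was called lower and 1 higher, and the median log2 fold change was -0.71. Elovl6, which elongates palmitate to stearate and so makes the substrate of Scd1, fell 4.60-fold (log2 fold change -2.20, adjusted p = 0.0107, edgeR). FPKM of Elovl6 were 217, 204 and 131 in control skin and 40.6, 27.6 and 48.5 in IMQ skin, without overlap. Degs1, a desaturase of ceramide synthesis, rose (log2 fold change 0.98, adjusted p = 0.0423, edgeR).

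Of 11 genes of fatty acid synthesis, 2 were called lower and 0 higher, with a median of -0.55. They were Acacb, an acetyl-CoA carboxylase (log2 fold change -1.13, adjusted p = 0.0460, edgeR), and the citrate carrier gene Slc25a1 (-0.79, adjusted p = 0.0472, edgeR). Of 13 genes of other acyltransferases, acyl-CoA synthetases and fatty alcohol metabolism, 1 was called lower, the ether lipid gene Gnpat (log2 fold change -0.51, adjusted p = 0.0347, edgeR), and the median was -0.51. Of 9 genes of cholesterol ester handling, 1 was called higher and 0 lower, with a median of 0.26. This was Lipa, the lysosomal acid lipase that hydrolyzes cholesteryl esters (log2 fold change 0.63, adjusted p = 0.0442, edgeR).

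**Figure D2:**
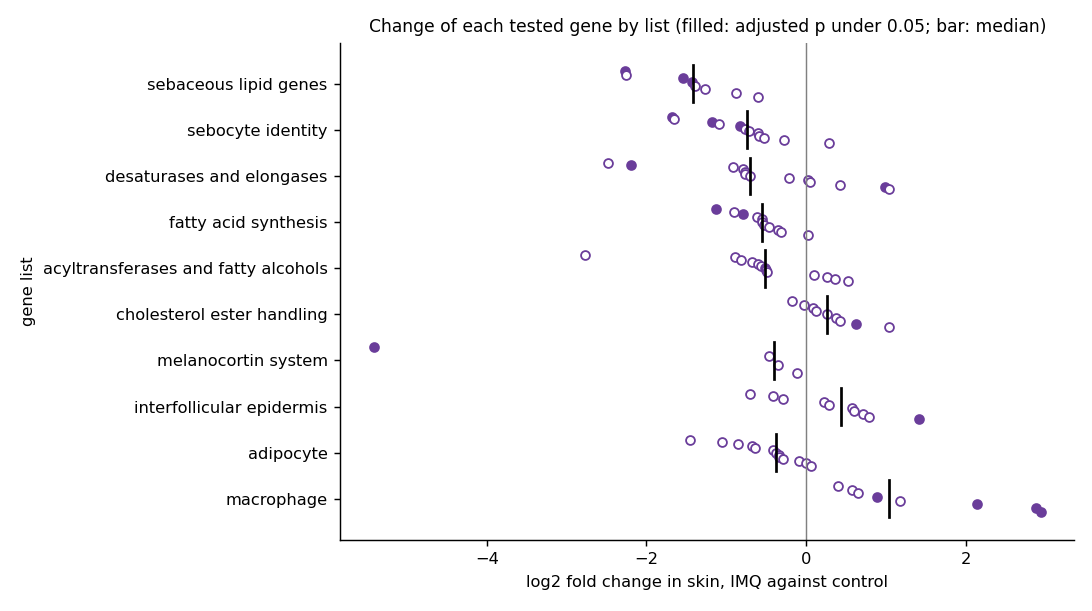
Log2 fold change in skin (IMQ against control) of each tested gene of 10 lists, with filled points for an adjusted p under 0.05 in edgeR and a bar at each list's median. All 8 sebaceous lipid genes lie below 0 with a median of -1.41, and cholesterol ester handling, interfollicular epidermis and macrophage genes have medians above 0. The hair follicle genes, with a lower median of -5.18, are not drawn.

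Markers of other skin cells moved with the groups in part. The 20 hair follicle genes summed to 752, 20.1 and 1207 FPKM in control skin, and to 22.5, 17.8 and 12.9 in IMQ skin. Control library 2 was thus at the level of the IMQ libraries for the hair follicle genes, and 5 of the 20, all of them keratins, had 0 counts there. The 8 sebaceous lipid genes summed to 1505, 1913 and 853 FPKM in control skin and to 457, 438 and 764 in IMQ skin. Their sum was highest in control library 2, and most of it was Scd1, with 939, 1383 and 567 FPKM in control skin. By FPKM, Scd1 and Scd3 were highest in control library 2, and the other sebaceous lipid genes were highest in control library 1. Of the 12 hair follicle genes tested, 3 were called lower, Krt28, Lef1 and Hoxc13 (log2 fold changes of -7.11, -3.10 and -2.92, adjusted p = 0.0403, 0.0403 and 0.0410, edgeR). Log2 fold changes were below 0 for 11 of these 12 genes. Their median was -5.18, lower than that of the 8 sebaceous lipid genes.

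Scd1 and Cidea are also active in fat cells. The 13 adipocyte genes summed to 2559, 4033 and 2507 FPKM in control skin and to 2404, 1958 and 2510 in IMQ skin, and these groups overlapped. Of all 20512 genes tested in skin, 4753 had an unadjusted p under 0.05 in edgeR. Among the 13 adipocyte genes, edgeR called 0, with 3 at an unadjusted p under 0.05, and 12 of 13 log2 fold changes were below 0 with a median of -0.38. The most abundant of them were Car3 and Fabp4, at -0.42 and -0.29 on the log2 scale (adjusted p = 0.506 and 0.523, edgeR). Of 5 brown adipocyte genes tested, 1 was called lower, Dio2 (log2 fold change -2.10, adjusted p = 0.0105, edgeR). Interfollicular epidermis genes summed to 6001 to 13102 FPKM in control skin and to 10310 to 17130 in IMQ skin, with 1 of 10 called higher, Krt14 (log2 fold change 1.41, adjusted p = 0.0447, edgeR). The 8 macrophage genes summed to 326 to 474 FPKM in control skin and to 685 to 921 in IMQ skin, with 4 of 8 called higher, Itgam, Adgre1, Cd14 and Lyz2. The 8 skeletal muscle genes had 0 calls in edgeR, 0 at an unadjusted p under 0.05 and a median of -0.30, with -0.18 for Acta1 and -0.32 for Ckm, the most abundant. They summed to 4244, 6281 and 5021 FPKM in control skin and to 3167, 3099 and 6235 in IMQ skin. IMQ libraries 4 and 5 were thus below all controls and IMQ library 6 was the highest IMQ library, as for the sebaceous lipid genes. Control library 3 was not the lowest control library for the muscle sum, but it was for the adipocyte, epidermis and macrophage sums. IMQ library 6 was the highest IMQ library for the adipocyte and macrophage sums and the lowest for the epidermis sum. Small intestine epithelium genes summed to 232 FPKM in control skin library 2 and to 17.7 to 29.9 in the other skin libraries, against 10815 to 24139 in small intestine. Of the most abundant of these in skin, Fabp2 had 92.9 FPKM in control library 2 and 0 to 2.66 in the others, and Anpep had 36.4 and 17.5 to 27.1. The part of these cell types in the fall of the sebaceous lipid genes was not tested.

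**Figure D3:**
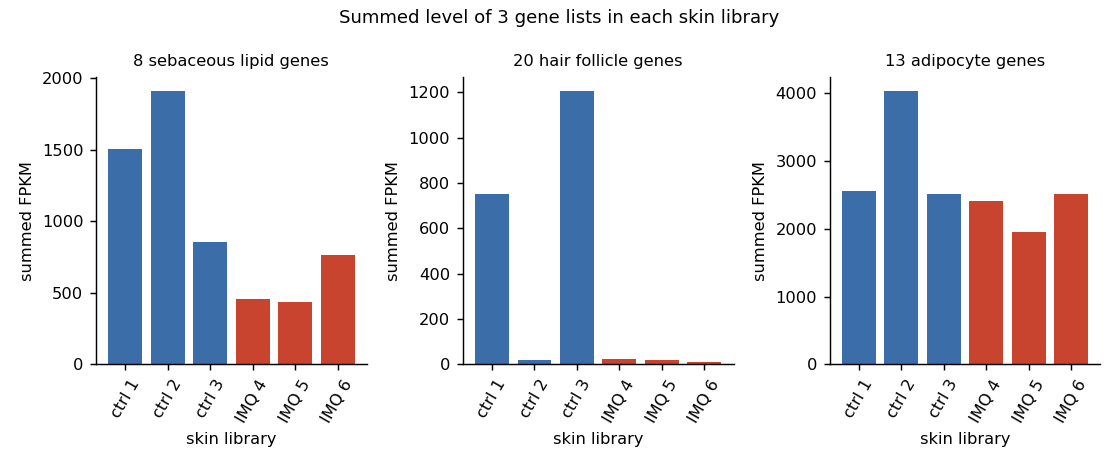
Summed FPKM of the 8 sebaceous lipid genes, 20 hair follicle genes and 13 adipocyte genes in each skin library, with control libraries in blue and IMQ libraries in red. Control library 2 has the highest sum of sebaceous lipid genes (1913) and of adipocyte genes (4033) but a hair follicle sum of 20.1, near those of the IMQ libraries. Scd1 alone makes up 1383 of the 1913.

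The genes of the whole table with the pattern most like each member were found by the root mean square distance of centered log2 normalized counts over the 6 skin libraries, among 15767 genes with a mean of at least 50. For Scd1 they were Aldh1a7 (distance 0.11), Echdc1 and Enpep, and for Scd3 they were Kcnj16 (0.18), Ccl27b and Rab11fip4. For Elovl3 they were Fcna (0.11), Plin2 and Dact2, and for Far2 they were Mettl7b (0.12), Snap91 and Cyp3a57. For Awat1 they were Tac4 (0.18), Ces4a and Ceacam3, and for Awat2 they were Elovl6 (0.23), Gm16527 and Snap91. For Soat1 they were Pank1 (0.07), Crat and Gm38514, and for Mc5r they were Paqr9 (0.13), Reep6 and Fam57b. Snap91 appeared for both Far2 and Awat2. Between members, Scd1 and Far2 were the closest pair (0.23) and Scd3 and Elovl3 the farthest (0.89).

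In small intestine, which has no sebaceous glands, 6 of the 8 genes had at least 1 count in every library, and Awat1 and Elovl3 had 0 counts in all 5 libraries. The level of each gene was compared between control libraries of both tissues, and all 6 genes tested were called higher in skin, where 25.7% of 18890 genes tested were called higher. Scd1 was 465-fold higher in skin (log2 fold change 8.86, SE 0.71, adjusted p = 4.20e-05, edgeR), with mean normalized CPM of 4922 and 10.6. Scd3, Mc5r and Awat2 were 97.2-fold, 90.6-fold and 67.2-fold higher (adjusted p = 0.00035, 3.36e-06 and 4.68e-05, edgeR). Far2 and Soat1 differed least, 5.84-fold and 4.79-fold (adjusted p = 0.000166 and 7.73e-05, edgeR). Against a floor of 3 counts per library on the same normalized scale, Awat1 was at least 1211-fold and Elovl3 at least 2804-fold higher in control skin.

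Levels per length ordered the genes differently in the tissues. In control skin the mean FPKM was 963 for Scd1, 172 for Far2, 115 for Elovl3, 66.6 for Awat1, 39.2 for Scd3, 33.2 for Soat1, 27.5 for Awat2 and 7.51 for Mc5r. Scd1 stood above and Mc5r below all others in every library, whereas each neighboring pair from Far2 to Awat2 overlapped in range. In IMQ skin Elovl3 (73.4) ranked above Far2 (57.5), and these 2 also overlapped. In control small intestine the order was Far2 with 22.8, Soat1 with 5.07, Scd1 with 1.52, Scd3 with 0.298, Awat2 with 0.204 and Mc5r with 0.0513, of which only Scd3 and Awat2 overlapped. Scd3 was 1.96% to 5.54% of Scd1 by FPKM in the skin libraries and 16.4% to 28.9% in the intestinal libraries, and these ranges did not overlap. The intestinal values rest on 28 to 103 counts of Scd3, and the paralog Scd2 had a mean of 18.1 FPKM in control small intestine. How reads shared among these paralogs were counted is not stated, so this difference in ratio is uncertain.

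**Figure D4:**
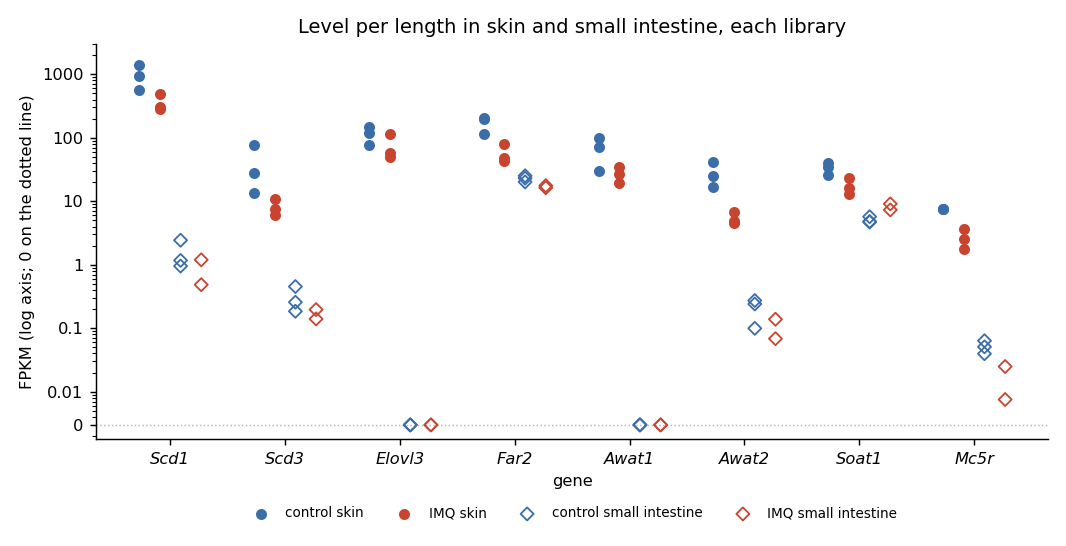
FPKM (log axis, with 0 on the dotted line) of the 8 genes in each library, with filled circles for skin, open diamonds for small intestine, blue for control and red for IMQ. Far2 and Soat1 have the highest levels in small intestine, and Awat1 and Elovl3 lie at 0 in all 5 intestinal libraries.

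In small intestine, 0 of 6 genes were called by edgeR between IMQ and control mice, 3 had an unadjusted p under 0.05 and DESeq2 called 1. Of all 19965 genes tested there, edgeR called 2.77% higher and 0.170% lower, and 2452 had an unadjusted p under 0.05. DESeq2 called 1006 of them higher and 200 lower. Soat1 had normalized counts of 1602, 1225 and 1384 in control mice, and 2483 and 2161 in IMQ-treated mice. Both IMQ libraries were above all control libraries, which held for 15.1% of all genes tested. The difference of 1.65-fold was just short of the threshold in edgeR (log2 fold change 0.73, SE 0.15, adjusted p = 0.0565) and past it in DESeq2 (adjusted p = 0.00327). It missed the threshold in the 7 other settings, with an adjusted p of up to 0.242 in one edgeR fit of all libraries, and with one library left out the adjusted p from edgeR ranged from 0.0252 to 0.315.

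Far2 had normalized counts of 4919, 4181 and 4046 in control and 3112 and 3621 in IMQ small intestine (log2 fold change -0.38, SE 0.14, adjusted p = 0.326, edgeR). Mc5r had 11.9, 17.1 and 14.8 in control and 7.26 and 3.33 in IMQ small intestine (log2 fold change -1.41, adjusted p = 0.204, edgeR), which rests on 3 to 17 counts per library. For both genes the IMQ libraries were below all control libraries, as for 13.9% of all genes tested. Scd1 had 271, 309 and 709 in control and 331 and 145 in IMQ small intestine, Scd3 had 31.0 to 95.1 and Awat2 had 9.98 to 38.0 over the 5 libraries. These 3 genes overlapped between the groups, with adjusted p between 0.557 and 0.610 in edgeR.

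The change with IMQ was then compared between the tissues as an interaction in one edgeR model of all 11 libraries. Of the 6 genes tested, 1 was called, Soat1, against 2.55% of 18108 genes. The log2 fold change of Soat1 was higher in small intestine than in skin by 1.62 (SE 0.32, adjusted p = 0.0280, edgeR), with means going from 1404 to 2322 in small intestine and from 8485 to 4594 in skin. The call held in 4 of 11 fits with 1 library left out and was lost without control skin library 1, IMQ skin library 4 or 5, control small intestine library 8 or 9, or IMQ small intestine library 10 or 11. Over these 11 fits the adjusted p ranged from 0.0110 to 0.119 and the difference from 1.45 to 1.85. For Far2 the difference was 1.18 (SE 0.40, adjusted p = 0.159, edgeR), and for Mc5r it was 0.03 (SE 1.23), an error too wide for a comparison.

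**Figure D5:**
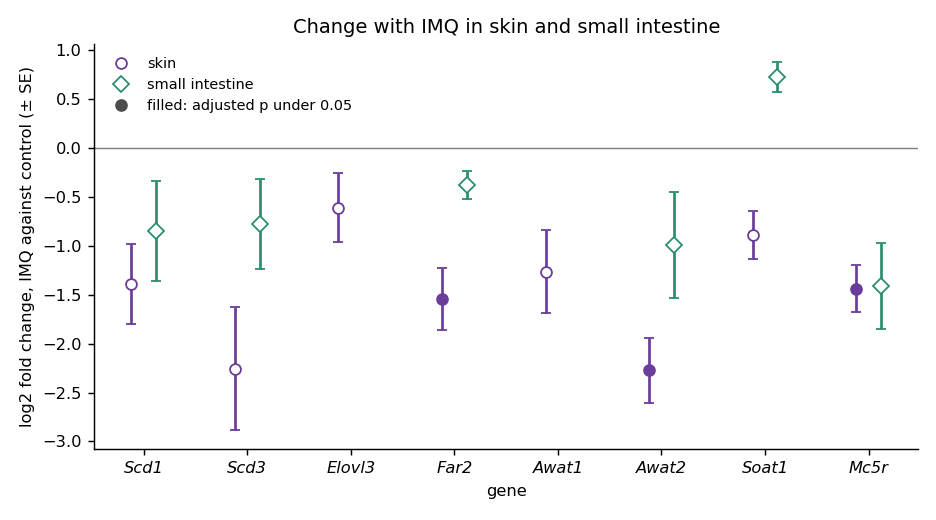
Log2 fold change with IMQ (± SE) of each gene in skin (circles, 3 against 3 libraries) and small intestine (diamonds, 2 IMQ against 3 control libraries), filled where the adjusted p was under 0.05. Soat1 is the one gene on opposite sides of 0, at -0.89 in skin and 0.73 in small intestine, and Awat1 and Elovl3 have no intestinal value.

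Genes related to Soat1 were read from the same lists in small intestine. Of 9 genes of cholesterol ester handling, 2 were called higher and 0 lower, with a median of 0.19. They were the sterol exporter Abcg1 (log2 fold change 4.02, adjusted p = 0.000417, edgeR) and Lipa (1.23, adjusted p = 0.0397, edgeR). Of 8 genes of sebocyte identity tested there, 2 were called higher, the nuclear receptor gene Pparg (log2 fold change 1.37, adjusted p = 0.0195, edgeR) and the lipid droplet gene Plin2 (1.07, adjusted p = 0.0232, edgeR), both active in other cell types as well. Pparg and Plin2 had log2 fold changes of -0.72 and -0.59 in skin, where neither was called. The sterol acyltransferase paralog Soat2 was not called in either tissue, with log2 fold changes of 0.53 in skin and -0.20 in small intestine (adjusted p = 0.743 and 0.828, edgeR). The 8 macrophage genes summed to 155 to 199 FPKM in control and to 238 and 253 in IMQ small intestine, and 3 of 7 tested were called higher, Adgre1, Cd68 and Itgam. The 13 adipocyte genes summed to 108 to 126 FPKM in control and to 170 and 156 in IMQ small intestine. Of 8 adipocyte genes tested there, 1 was called higher, Car3 (log2 fold change 6.39, adjusted p = 0.000362, edgeR). The median of these 8 was 0.32, with 6 above 0 and 2 below. The part of macrophages or fat cells in the difference of Soat1 was not tested.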

How the data were processed

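The authors trimmed the reads, aligned them to mm10 with HISAT v2.1.0, assembled them and estimated abundance with StringTie v2.1.3b, and deposited read counts per gene, without normalization, for 11 libraries. The same table holds FPKM, which the authors computed per gene length and library size, and TPM deposited by the authors, which was not used. The libraries were made with a stranded kit. Whether counting used strand, how whole-number counts were derived from the StringTie output and how multiply matching reads were treated is not given in the sources used here. Every entry named a gene.

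The 8 genes and 13 lists of 149 genes (147 in the table) were chosen with earlier results of these data known. Genes detected with 1 count or more in all libraries of a comparison were kept and tested with edgeR 4.0.16 in R 4.3.3 after relative log expression normalization. The study removed genes with a zero count as well, but used DESeq2, which is an alternative here (1.42.0). The standard error is the log2 fold change divided by the square root of F. Normalized counts are counts per effective library size, scaled to its mean within a tissue or, between tissues, to CPM. Tests were checked on simulated counts. The spread between libraries (biological coefficient of variation, 0.245 for skin and 0.215 for small intestine) sets the precision at 44995414 to 58526384 counts, and libraries of one group differed beyond counting noise. Floors cover counting error only. Lists were described by counts of calls and medians. Named from each list were genes called in skin, at most the 4 with the largest change, and the 2 most abundant where none was called. Genes called in small intestine only, Krt79, Scd2, Scd4, Soat2, Pitx3 and Ergic2 were named after their values were seen. Ratios were tested by 2-sided exact permutation. Alternatives were TMM, DESeq2, limma-voom (limma 3.58.1), filterByExpr, no filter, limma on log2(FPKM + 0.01) and log2(FPKM + 1), one fit of all 11 libraries and each library left out. Positions and promoters are from RefSeq, GRCm38.p6. Tables were made with Python 3.11.15.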

Additional observations from a re-analysis of the deposited data

Results flagged for a closer look

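The change of Soat1 with IMQ differed between the tissues by 1.62 on the log2 scale (small intestine minus skin, SE 0.32, adjusted p = 0.0280, edgeR interaction term over 11 libraries). Soat1 was higher in 2 of 2 IMQ libraries of small intestine and lower in 3 of 3 IMQ libraries of skin than in every control library of the tissue. The adjusted p was 0.000404 to 0.0484 over the 7 other settings, and the call was lost in 7 of 11 fits with one library left out. Within each tissue alone Soat1 missed the threshold in edgeR (adjusted p = 0.0829 in skin and 0.0565 in small intestine).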

How the results depend on the processing

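All 8 log2 fold changes in skin and all 6 tissue differences between controls kept their direction under every alternative and library left out. The 1382 genes called in skin became 3030 with DESeq2, 894 with log2(FPKM + 1) and 258 to 2521 with one library left out, and the 3 of 8 sebaceous lipid genes became 7 with DESeq2, 5 with one fit of all libraries and 0 to 5. In small intestine 588 called genes became 1206 with DESeq2 and 294 to 801 with one library left out, and the 0 of 6 sebaceous lipid genes became 1 with DESeq2 and 0 to 1 (Soat1, without control library 7). For the difference between tissues, 462 genes became 1281 with DESeq2, 301 without a filter and 144 to 1072 with one library left out, and the 1 gene became 3 with log2(FPKM + 1) and 0 to 2. The difference of Scd1 ranged from -0.15 to 1.12 and that of Mc5r from -0.65 to 0.42 with one library left out, Scd1 turning sign without IMQ small intestine library 10. Mc5r turned without control skin library 2 (-0.03), IMQ skin library 5 (-0.18), control small intestine library 7 (-0.08) or IMQ small intestine library 10 (-0.65). Far2 in skin lost its call with log2(FPKM + 1) (adjusted p = 0.0518, limma). The causes were not tested. Between tissues, log2(FPKM + 0.01) moved the median of all genes from 0.003 to 0.445. With one IMQ library of small intestine left, it was assumed to vary like the other groups. The nearest genes over all 11 libraries shared 1 of the 24 found over skin, Ces4a. No paired analysis was possible because the annotation does not say which tissues came from one mouse. Mc5r and Awat2 in small intestine rest on few counts, so depth limits them.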
